A study of Equus caballus with 3 samples.

Results

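Within the cultured mesenchymal stromal cells (MSCs) of equine adipose tissue (AT), 1027 of 5403 kept cells (19.0%, 95% Clopper-Pearson interval 17.97 to 20.1%) carried a high load of 3 smooth muscle transcripts. These cells were chosen by their measured values: the unique molecular identifiers (UMIs) of *ACTA2*, *ACTG2* and *DES* together had to reach 20 per 10000 UMIs of the cell. The remaining 4376 kept AT cells were the comparison, and the 3 genes of the rule were left out of the gene by gene findings and are given only as a description. Because one score was cut, the contractile cells are a range of this score rather than a separate type. All intervals given here cover counting error only, and with 1 library per source no test between conditions was possible.

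Smooth muscle cells contract when calcium and calmodulin activate myosin light chain kinase, which phosphorylates the regulatory light chain of myosin and lets it pull on actin filaments. These filaments hold smooth muscle alpha actin (*ACTA2*) and gamma actin (*ACTG2*), tropomyosin, calponin, caldesmon and transgelin, and desmin (*DES*) forms the intermediate filaments that link them mechanically. Serum response factor, with its cofactors of the myocardin family, drives many of these genes and is sensitive to the state of the actin cytoskeleton, and TGF-beta raises several of them in fibroblasts and stromal cells in culture.

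The study asked how MSCs differ between and within tissue sources, and took AT, BM (bone marrow) and PB (peripheral blood) from a single healthy Warmblood mare, 10 years old. The MSCs were grown for 2 passages and then loaded on a droplet instrument with 3′ chemistry, as 1 library for each source. The source of each library was taken from its title, since the deposited source name is the same for all 3 and gives blood mononuclear cells. Kept cells had 2500 to 15000 UMIs and at most 3% mitochondrial UMIs, which left 5403, 5580 and 5318 cells of AT, BM and PB. The AT file also listed 5788 barcodes of the PB file, at a median of 832 UMIs, and all 5318 kept PB barcodes were among them. After the UMI limits only 119 kept AT cells shared a barcode with BM or PB, 22 of them contractile. The part of this sharing in the results was tested only by leaving these AT cells out, which left 20 of the 20 highest and 15 of the 15 lowest genes named below past 2-fold.

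The values that chose the cells are given first, as a description. The contractile cells had a median of 35.4 UMIs of the 3 genes per 10000 (quartiles 25.7 and 50.02, maximum 272), against 3.96 in the other AT cells. No gap in the score marked the cut: 333 cells lay between 15 and 20 and 233 between 20 and 25, with the nearest cells at 19.94 and 20.01. *ACTA2* was at 2242 CPM (UMIs of the gene summed over cells and scaled to a common total) in the contractile cells and 335 CPM in the others. *ACTG2*, the smooth muscle gamma actin typical of gut and other visceral muscle, was at 1469.8 against 156 CPM, and *DES* at 670.3 against 85.6 CPM. All 3 transcripts were found in 684 of the contractile cells (66.6%), exactly 2 in 310 and 1 in 33. The muscle actins are near-identical in coding sequence, so how UMIs were divided among *ACTA2*, *ACTG2* and *ACTA1* by the counting is uncertain. A random division of every cell's UMIs let the rule be applied to one portion and the genes be read in the other. In it the 1068 cells chosen had 2102, 1373 and 630.4 CPM of *ACTA2*, *ACTG2* and *DES* in the UMIs not used, against 352, 165 and 89.8 CPM in the rest. In those UMIs 77.2% of the chosen cells passed the cut again, against 4.80% of the cells not chosen. The rule genes were read again in the same cells, so these values are a description of the choice and add no support.

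The same cut was passed by 626 of 5580 BM cells (11.2%) and 271 of 5318 PB cells (5.10%). The sources differed in which gene carried the score. *ACTA2* made up 51.2% of the rule UMIs of the passing cells in AT, 76.8% in BM and 85.7% in PB. A *DES* UMI was found in 743 of the 1027 passing AT cells, but in 30 of 626 in BM and 1 of 271 in PB. In the cells below the cut the share with a *DES* UMI was 32.8% in AT, 1.49% in BM and 0.218% in PB, at median depths of 7148, 6762 and 7709 UMIs. *ACTG2* was found in 960 of the 1027 passing AT cells, 435 of the 626 of BM and 132 of the 271 of PB. Such shares move with depth and with free RNA, and no cells known to lack the 3 transcripts were at hand as a background. The plot of the score by source sets the longer AT tail, up to 272 UMIs per 10000, beside those of BM and PB, up to 168 and 97.2.

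**Figure D1:**
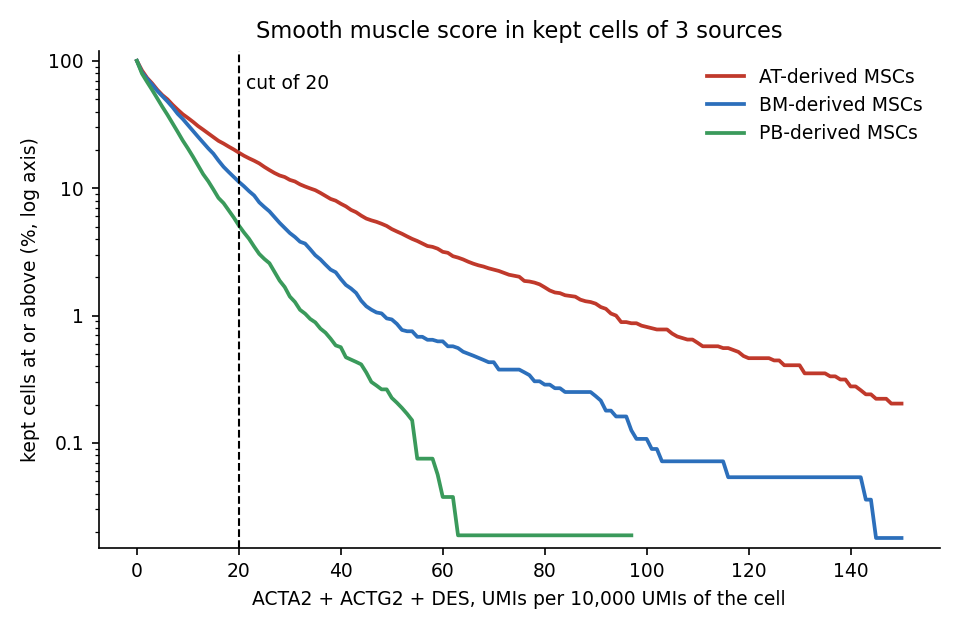
Percentage of kept cells (log axis) at or above each value of the score, the UMIs of *ACTA2*, *ACTG2* and *DES* per 10000 UMIs of the cell, for AT-, BM- and PB-derived MSCs, with the cut of 20 as a dashed line. At the cut the curves stand at 19.0% in AT, 11.2% in BM and 5.10% in PB, with no step in any curve at that point.

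The contractile cells were slightly deeper than the other AT cells, with a median of 7867 against 7148 UMIs, and had a similar mitochondrial share, 1.36% against 1.44%. With every cell thinned to 2500 UMIs, the median cell had 1018 and 1010 detected genes, and 21.8% of cells passed the cut on the thinned UMIs, 929 of them among the 1027. Summed over cells, the comparison rested on 8093616 UMIs in the contractile cells and 31887040 in the others, so that 3 UMIs correspond to 0.371 and 0.0941 CPM.

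Most genes were at like levels in both groups. Of 6203 genes at 10 CPM or more over all kept AT cells, 52 (0.838%) were over 2-fold higher in the contractile cells and 21 (0.339%) over 2-fold lower, where the ratio is that of CPM + 1. The median log2 ratio of all these genes was -0.02, and the middle 90% lay between -0.40 and 0.41. The counting intervals of both groups were apart for 52 of the 52 higher and 21 of the 21 lower genes. The genes were picked by fold in these same UMIs, so the separate intervals add no support. The shares past 2-fold are the background against which the gene lists below are read.

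Among the lists with 5 or more tested genes, the contractile apparatus outside the rule had the highest median. Of its 23 genes 22 were in the files and 16 reached 10 CPM. Of these 16, 9 were over 2-fold higher, 0 over 2-fold lower and 14 above a log2 ratio of 0. Their median was 1.11, against -0.02 for all genes tested. The 9 include *MYLK*, which reached 10 CPM only through the contractile cells. Its summed level was 16045 CPM in the contractile and 6692 CPM in the other AT cells. The median cell held 148 UMIs of the list per 10000 (quartiles 116 and 188), against 60.6 (quartiles 45.7 and 82.2) in the other cells, so that the upper quartile of the others lay below the lower quartile of the contractile cells.

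*MYLK*, the myosin light chain kinase that starts contraction, had the highest log2 ratio of all genes tested, at 42.7 CPM (95% interval 38.4 to 47.5) in the contractile cells against 4.74 CPM (4.01 to 5.55) in the other AT cells, a log2 ratio of 2.93. It reached the filter of 10 CPM only through the contractile cells. Of the 20 highest genes the same held for *PDLIM3*, *IL11*, *ANKRD1*, *EDN1* and *TINAGL1*, so the ranks of these genes are a description. The counts over 2-fold of the gene lists that hold any of them carry the same limit. The substrate of *MYLK*, the smooth muscle regulatory light chain *MYL9*, was at 1436 against 465 CPM, a log2 ratio of 1.62. The light chains that other cell types share were nearer to 0, with log2 ratios of 0.68 for *MYL6*, 0.68 for *MYL12A* and -0.14 for *MYL12B*. *MYH11*, the smooth muscle myosin heavy chain and the most specific marker of the mature cell, stayed under the level filter at 12.1 against 4.17 CPM, with 98 UMIs in 84 contractile cells. The non-muscle heavy chain *MYH9* was at 399.6 against 216 CPM (0.89).

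Thin-filament proteins followed the actins of the rule. Calponin (*CNN1*), which binds actin and damps the myosin ATPase, was at 308 CPM (95% interval 296 to 320.5) in the contractile cells against 54.6 CPM (52.1 to 57.3) in the other AT cells, a log2 ratio of 2.47. Transgelin (*TAGLN*), an actin-bundling protein of early smooth muscle, was at 2258 CPM (95% interval 2225 to 2291) in the contractile cells against 677 CPM (668 to 686) in the other AT cells, a log2 ratio of 1.74. The tropomyosins *TPM1* and *TPM2*, which lie along the actin filament, were at 4947 against 1573 CPM (1.65) and 1903 against 779 CPM (1.29). Leiomodin 1 (*LMOD1*), an actin nucleator of smooth muscle, was at 81.9 against 25.7 CPM (1.63). Caldesmon (*CALD1*) and smoothelin (*SMTN*) had log2 ratios of 1.15 and 1.07, whereas the non-muscle relatives *CNN3* and *TAGLN2* were at 0.22 and -0.15.

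The name smooth-muscle-like rests on the contractile genes above other than *MYLK*, which the filter admitted only through the contractile cells. The rule genes chose the cells and are high by that choice. In the contractile list 6 genes stayed under 10 CPM over all kept AT cells, *MYH11* among them. Synaptopodin 2 (*SYNPO2*) was at 20.3 against 2.73 CPM, the calcium-activated potassium channel subunit *KCNMB1* at 4.201 against 0.408 CPM, synemin (*SYNM*) at 10.7 against 4.89 CPM and calponin 2 (*CNN2*) at 6.05 against 2.63 CPM. Phospholamban (*PLN*) had no UMI in the contractile cells, which allows up to 0.371 CPM. Myocardin (*MYOCD*), the master coactivator of the lineage, is not on this list. It had 16 UMIs in 16 contractile cells (1.56%) and 35 UMIs in 34 of the other AT cells (0.777%). In the list of smooth muscle signalling genes, 1 of 20 genes reached 10 CPM, the small GTPase *GEM* at 330.3 against 142 CPM (1.21), and *OXTR*, *CALCRL* and *ADRA1A* were at 0 in the contractile cells. *ACTA1*, the skeletal muscle actin, was at 18.4 against 0.220 CPM, with 149 UMIs in 30 contractile cells, 57.7% of them in 5 cells.

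The actin cytoskeleton list was higher by smaller steps. Of 33 tested genes 32 had a log2 ratio above 0, 5 were over 2-fold higher and none over 2-fold lower, with a median of 0.58. The 5 include *PDLIM3*, which reached 10 CPM only through the contractile cells. *PDLIM3*, a PDZ and LIM domain protein that binds alpha-actinin, was at 52.4 CPM (95% interval 47.5 to 57.6) in the contractile cells against 8.15 CPM (7.19 to 9.21) in the other AT cells, a log2 ratio of 2.54. Nexilin (*NEXN*), an actin-binding protein of muscle and adhesion sites, was at 284 against 89.1 CPM (1.66). Alpha-actinin 1 (*ACTN1*), cofilin 2 (*CFL2*) and palladin (*PALLD*) had log2 ratios of 1.27, 1.24 and 1.22, and the adhesion proteins vinculin (*VCL*) and zyxin (*ZYX*) of 0.94 and 0.72. The cytoplasmic actins *ACTB* and *ACTG1* were at 0.74 and 0.54. Serum response factor itself (*SRF*) was at 12.6 against 6.12 CPM and its cofactors *MRTFA* and *MRTFB* at 29.2 against 19.8 CPM and 6.795 against 6.74 CPM. Syncoilin (*SYNC*), an intermediate filament protein that partners desmin, is on no list and was at 42.9 against 14.6 CPM (1.49).

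Secreted signals and a receptor were also among the 20 highest genes. Endothelin 1 (*EDN1*), a peptide that constricts smooth muscle, was at 37.8 CPM (95% interval 33.7 to 42.3) in the contractile cells against 8.94 CPM (7.93 to 10.0) in the other AT cells, a log2 ratio of 1.97. *TBXA2R*, the receptor for the constrictor thromboxane A2, was at 76.6 against 21.1 CPM (1.81). The neurotrophin *BDNF* was at 64.1 against 18.9 CPM (1.71) and *IGFBP5*, which binds insulin-like growth factors, at 529.8 against 189 CPM (1.48). The matrix protein *TINAGL1* was at 30.1 against 9.41 CPM (1.58) and *GLIPR1* at 105 against 37.4 CPM (1.47). Also among the 20 highest were genes with only Ensembl identifiers, which the files do not pair with names: ENSECAG00000034508 on chromosome 5 (1.70) and ENSECAG00000030271 on chromosome 13 (1.57).

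The cytokine *IL11*, an interleukin 6 relative that signals through gp130, was also among the 20 highest genes, but few cells carried it. Its 393 UMIs lay in 110 contractile cells, with 86, 56 and 55 UMIs in the 3 highest, and 62.8% of them lay in 5 cells. The log2 ratio was 2.50 with all cells, 1.46 without the 5 AT cells with the most *IL11* UMIs, 1.10 in cells with 5000 to 10000 UMIs and 1.42 in cells called G1. By phase, *IL11* was at 21.3 against 7.35 CPM in G1, 134 against 8.90 CPM in S and 74.4 against 7.25 CPM in G2/M. A UMI was still found in 10.7% of the contractile and 3.93% of the other cells, and with every cell thinned to 2500 UMIs in 4.87% and 1.60%. Of the cytokine and chemokine list 2 of 14 genes reached 10 CPM, 1 of them, *IL11*, past 2-fold, and *IL6* and *CXCL2* had no UMI in the contractile cells. By comparison, leaving out the 5 highest cells took *MYLK* from 2.93 to 2.77 and *CNN1* from 2.47 to 2.43.

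Targets of the mechanosensitive coactivator YAP were higher in part. Of 12 tested genes 3 were over 2-fold higher and 10 above 0, with a median of 0.39. The 3 include *ANKRD1*, which reached 10 CPM only through the contractile cells. *ANKRD1*, a nuclear and sarcomeric ankyrin repeat protein, was at 45.8 CPM (95% interval 41.3 to 50.7) in the contractile cells against 9.13 CPM (8.11 to 10.2) in the other AT cells, a log2 ratio of 2.21, tissue factor (*F3*), which starts coagulation, at 81.5 against 33.8 CPM (1.25), and *CYR61* at 465 against 263 CPM (0.82). The TGF-beta list had a median of -0.02 over 12 tested genes, with 6 above and 6 below 0. Of these genes 2 were over 2-fold higher and 0 over 2-fold lower. Summed, the list was at 2456 against 1078 CPM, a log2 ratio of 1.19. Thrombospondin 1 (*THBS1*), which activates latent TGF-beta, was at 1178 CPM (95% interval 1155 to 1202) in the contractile cells against 352 CPM (346 to 359) in the other AT cells, a log2 ratio of 1.74. *LTBP1*, which binds latent TGF-beta in the matrix, was at 0.74. Below 0 were the receptor *TGFBR2* (-0.72), *TSC22D1* (-0.50) and the ligand *TGFB3* (-0.46), while the ligand *TGFB1* was at 0.21. *INHBA*, which encodes activin A, stayed under the filter at 17.1 against 3.32 CPM.

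**Figure D2:**
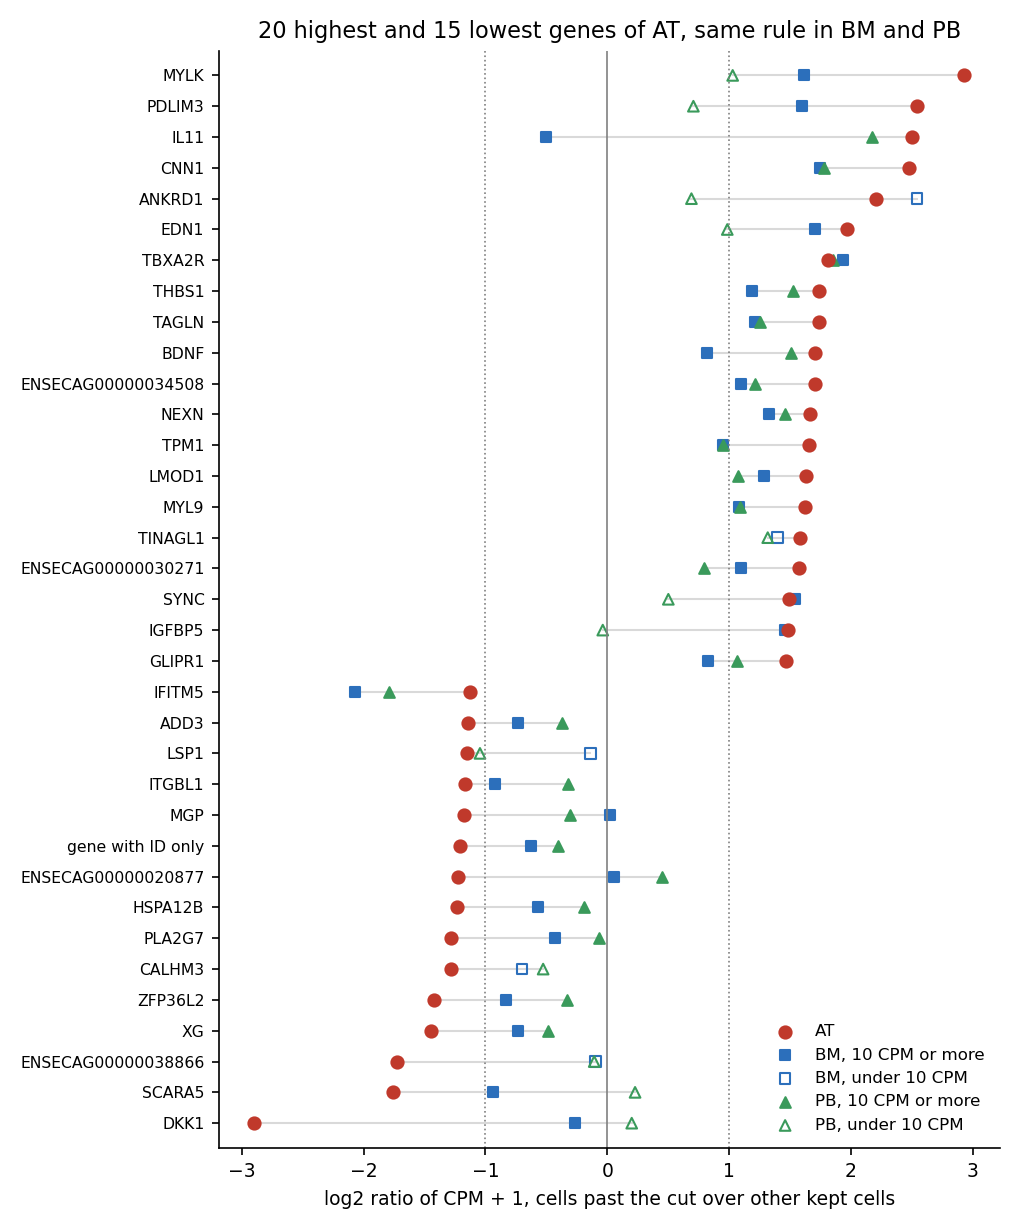
Log2 ratio of CPM + 1, cells past the cut over other kept cells, for the 20 genes highest and the 15 lowest in AT (circles), with the ratio of the same genes under the same rule in BM (squares) and PB (triangles); open symbols are genes under 10 CPM in that source, and dotted lines mark 2-fold. In BM 19 and in PB 19 of the 20 highest genes lie on the same side of 0 as in AT, the exceptions being *IL11* in BM and *IGFBP5*, which PB cells hardly held, against 13 and 12 of the 15 lowest. Of all genes tested 48.4% in BM and 58.2% in PB were above 0, and 18 and 13 of the 20 highest reached 10 CPM there.

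The 15 lowest genes included secreted and surface proteins. *DKK1*, a secreted antagonist of WNT signalling, had the lowest log2 ratio: 8 UMIs in the contractile cells against 440 in the others, or 0.988 against 13.8 CPM (-2.90). *SCARA5*, a scavenger receptor that takes up ferritin, was at 14.8 CPM (95% interval 12.3 to 17.7) in the contractile cells against 52.4 CPM (49.9 to 55.0) in the other AT cells, a log2 ratio of -1.75. The surface antigen *XG* was at 38.4 against 106 CPM (-1.44). Matrix Gla protein (*MGP*), an inhibitor of calcification, was at 185 CPM (95% interval 176 to 195) in the contractile cells against 419 CPM (412 to 427) in the other AT cells, a log2 ratio of -1.18. *ITGBL1*, an integrin beta-like secreted protein, and *PLA2G7*, the enzyme that inactivates platelet-activating factor, were at -1.17 and -1.28.

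Among the remaining low genes, *ZFP36L2*, which promotes decay of AU-rich mRNAs, was at 7.66 against 22.2 CPM (-1.42) and adducin 3 (*ADD3*), of the spectrin membrane skeleton, at 16.7 against 38.1 CPM (-1.14). The channel gene *CALHM3*, the heat shock protein relative *HSPA12B*, the actin-binding *LSP1* and the osteoblast membrane protein *IFITM5* had log2 ratios of -1.28, -1.23, -1.15 and -1.13, each at under 10 CPM in the contractile cells. They reached the filter only through the other AT cells, as did *DKK1*, *ZFP36L2*, *PLA2G7* and ENSECAG00000038866. Of 3 low genes with identifiers only, ENSECAG00000038866 was at -1.72, or -0.80 at a cut of 10, and ENSECAG00000020877 at -1.23. Of these 15 genes 4 stayed past 2-fold with a pseudocount of 10 CPM and 12 at a cut of 10 or after thinning.

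Of 14 tested fibroblast and MSC surface genes 3 had a log2 ratio above 0 and 11 below, with a median of -0.17 against 45.6% of all genes tested above 0. None passed 2-fold, where 0.838% of all genes were over 2-fold higher and 0.339% over 2-fold lower. The MSC antigens *THY1*, *CD44* and *ENG* were at 625 against 675 CPM, 561 against 724 CPM and 49.7 against 65.3 CPM, and decorin (*DCN*) at 1847 against 1827 CPM. The highest was *MFAP4*, a microfibril-associated glycoprotein, at 279 against 154 CPM (0.86), followed by integrin beta 1 (*ITGB1*, 0.72), and the lowest *PDGFRA*, the PDGF receptor of fibroblasts (-0.88). Matrix genes had a median of 0.02: collagen I was at 0.13 for *COL1A1* and 0.02 for *COL1A2*, fibronectin (*FN1*) at 1483 against 1006 CPM (0.56), and *COL12A1* and *COL11A1* passed 2-fold at 1.06 and 1.06, with *MGP* the single matrix gene over 2-fold lower.

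Some metabolic and growth factor genes differed as well. In the hypoxia list 13 of 14 tested genes were above 0, with a median of 0.47. The mitophagy receptor *BNIP3* was at 902 against 433 CPM (1.06), the glucose transporter *SLC2A1* at 1.02 and lactate dehydrogenase (*LDHA*) at 0.48. In the IGF list, *IGFBP5* stood apart from the other binding proteins, with *IGFBP4* at 266 against 368 CPM (-0.47) and *IGFBP6* at 237 against 423 CPM (-0.83), while the receptor *IGF1R* was at 0.75. The integrins and cadherins had a median of 0.06, with the fibronectin receptor subunit *ITGA5* highest at 0.82. In the list of ID genes, which encode inhibitors of differentiation, and BMP signalling genes, none of 5 tested genes passed 2-fold and all were below 0. The BMP signal transducer *SMAD5* was at -0.07, *ID1* at 316 against 527 CPM (-0.73) and *ID3* at 341 against 456 CPM (-0.42). Over single cells, *ID1* and *ID3* together had a median of 3.32 UMIs per 10000 in the contractile and 5.12 in the other AT cells. The lists of cathepsins, immediate early genes and cell cycle exit had medians of -0.14, -0.17 and -0.11, and *LGALS3*, galectin 3, was the single gene of these 3 lists past 2-fold (-1.05).

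**Figure D3:**
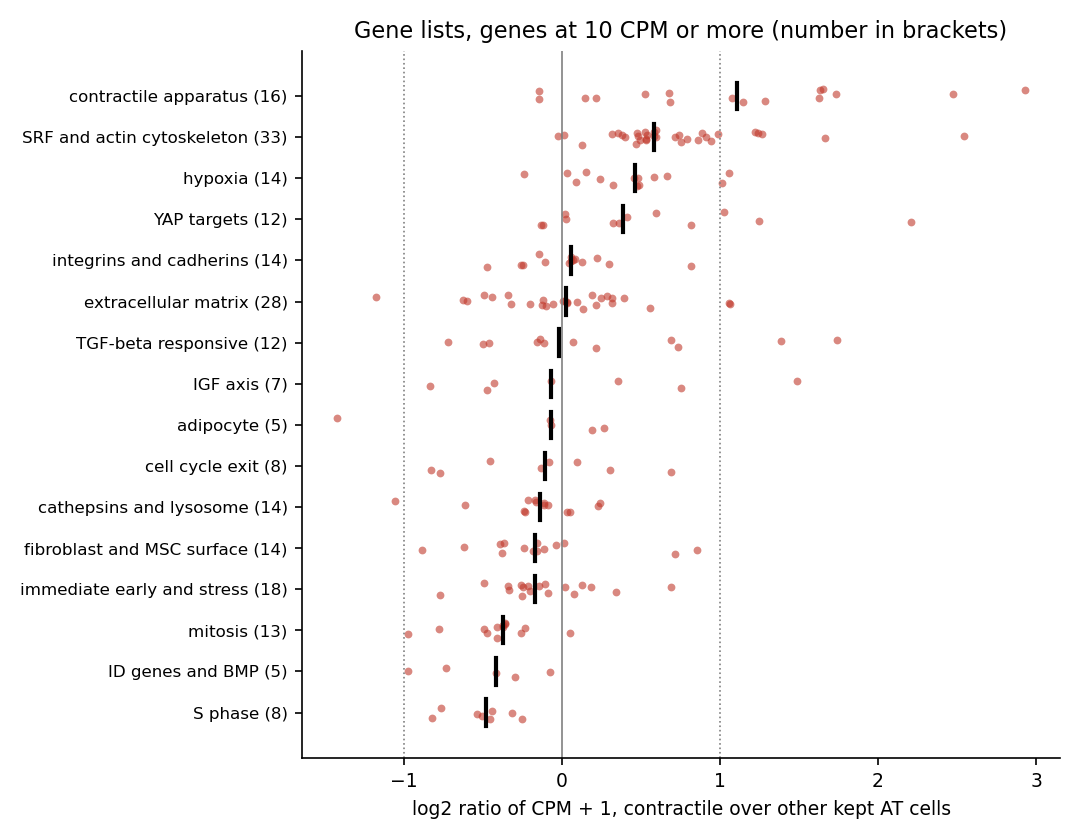
Log2 ratio of CPM + 1, contractile over other kept AT cells, for each gene at 10 CPM or more (points) in the lists with 5 or more such genes, with the list median as a black bar. The contractile apparatus has the highest median (1.11), followed by the actin cytoskeleton (0.58), and the S phase list the lowest (-0.48).

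Markers of other cell types that adipose tissue could hold differed in level between lists. Of the 12 endothelial genes in the files 10 had no UMI in the contractile cells, *PECAM1*, *CDH5* and *VWF* among them, and the list summed to 3.71 CPM against 6.81 CPM in the other AT cells. Of 13 haematopoietic genes 8 were at 0, *PTPRC* among them, with a sum of 11.9 against 12.9 CPM. Of the skeletal muscle list 9 of 17 were at 0, including *MYOD1*, *MYOG* and *PAX7*, with a sum of 36.7 against 18.8 CPM, and *ACTA1* gave 149 of its 297 UMIs in the contractile and 7 of its 599 in the other AT cells. The cardiac list summed to 3.58 against 2.92 CPM, the glial list to 7.29 against 8.37 CPM and the epithelial list, without *EPCAM* and *CDH1*, to 45.8 against 45.6 CPM. In the osteoblast and chondrocyte list only *IFITM5* reached 10 CPM, and the list summed to 18.4 against 28.8 CPM. Pericytes, the mural cells of small vessels, share *ACTA2*, *DES* and *MYL9* with smooth muscle. Their list summed to 497 against 319 CPM, and the part of this difference in the results was not tested. Of their 16 listed markers 3 reached 10 CPM, *NDUFA4L2* at 386 against 214 CPM (0.85), *NOTCH2* at 0.28 and *PDGFRB* at 39.3 against 46.1 CPM (-0.23). *KCNJ8*, *ABCC9*, *ANGPT1* and *STEAP4* were at 0 in the contractile cells and *RGS5* at 0.618 against 0.439 CPM. The adipocyte list summed to 208 against 212 CPM. Of its genes 5 of 19 reached 10 CPM. The one past 2-fold, *ZFP36L2* (-1.42), is the mRNA decay gene described above. *ADIPOQ*, *LPL* and *FABP4* were each under 2 CPM in both groups. *APOE* was at 6.30 against 0.282 CPM, with 90.2% of its UMIs in 5 contractile cells.

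The named genes were chosen by their difference along the score, so their levels over its range are a description. AT cells were put in bins of 0, above 0 to 5, 5 to 10, 10 to 20, 20 to 40, 40 to 80 and 80 or more UMIs of the 3 rule genes per 10000, which held 810, 1686, 983, 897, 619, 318 and 90 cells. In this order *TAGLN* was at 306, 465, 817, 1190.3, 1764, 2662 and 4117 CPM. *TPM1* was at 867, 1201, 1761, 2575, 3821, 5938 and 8944 CPM. Both were higher in each bin than in the one before, as were 16 of the 20 highest genes in all and 221 of all 6203 genes tested (3.56%). *CNN1* was at 18.1, 25.7, 66.0, 123, 229, 358 and 662 CPM, and cells with no UMI of the 3 rule genes still held it. *MYLK*, one of the 4 without this order, was at 2.81, 2.43, 6.35, 8.71, 28.2, 45.5 and 129 CPM, low below the cut and highest in the last bin.

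*MGP* was at 585, 473, 347, 276, 215, 156 and 88.0 CPM, and 9 of the 15 lowest genes were lower in each bin than in the one before, as were 195 of all genes tested (3.14%). *XG* was at 159.6, 119, 88.0, 63.2, 41.3, 37.3 and 23.4 CPM. The MSC antigen *CD44* was also lower in each bin than in the one before, from 779.6 CPM in the first to 453 CPM in the last. *SCARA5* went from 85.1 CPM in cells with none of the 3 transcripts to 6.28 and 6.88 CPM in the last 2 bins. Across the cut itself, cells scoring 15 to 20 and 20 to 25 had 1382 and 1569.6 CPM of *TAGLN*, 10.2 and 12.7 CPM of *MYLK*, and 267 and 265 CPM of *MGP*. The ratios above therefore depend on where a continuous score is cut.

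**Figure D4:**
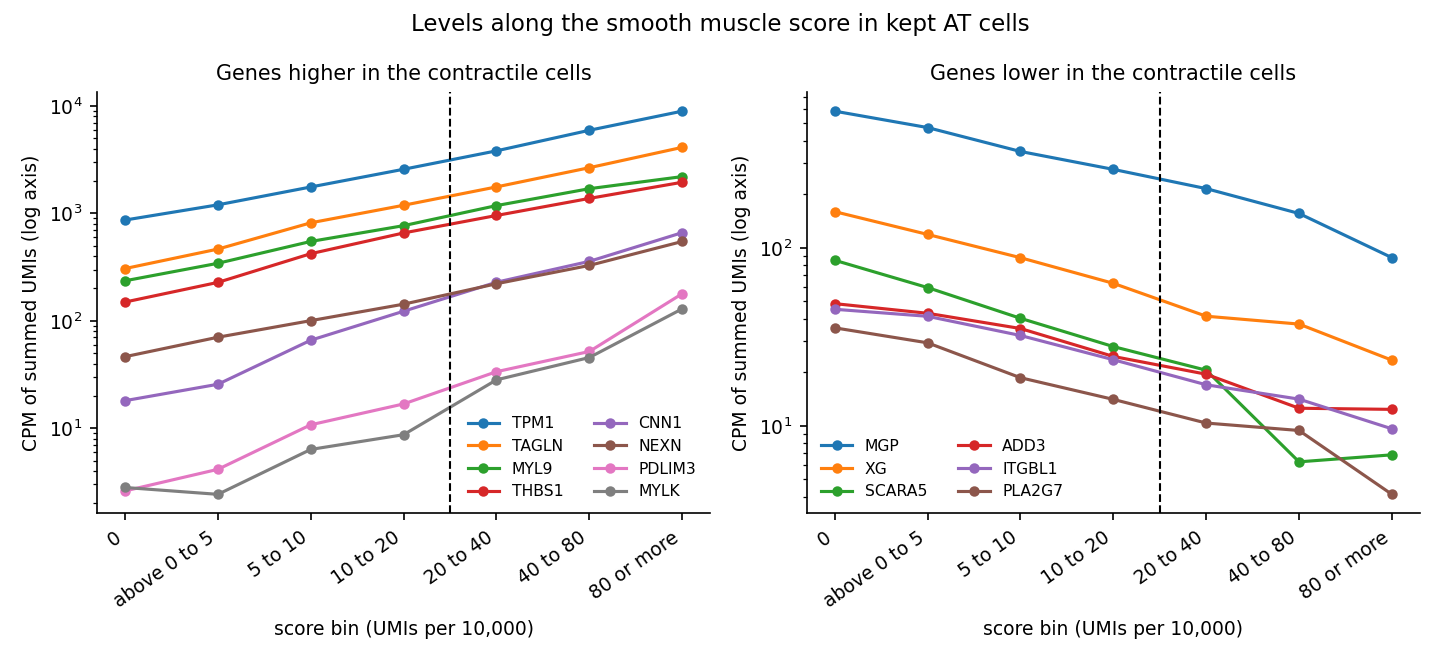
CPM of summed UMIs (log axis) in kept AT cells by bin of the score, for 8 genes higher (left) and 6 lower (right) in the contractile cells; the dashed line marks the cut of 20. *TPM1* goes from 867 to 8944 CPM and *MGP* from 585 to 88.0 CPM from the first to the last bin.

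The contractile cells varied among themselves in which rule gene led. *ACTA2* had the most UMIs of the 3 in 668 cells, *ACTG2* in 239 and *DES* in 95, and 25 cells were tied. UMIs are counted near 3′ ends, where capture may differ between genes, so this splits the cells by relative counts only. The contractile list summed to 16576, 14543 and 15854 CPM in these 3 sets, each above the 6692 CPM of the other AT cells. *DES*-led cells had 2474 CPM of *TPM2* and 2055 CPM of *FN1*, against 1891 and 1362 CPM in *ACTA2*-led cells, but less *F3*, at 27.2 against 87.9 CPM.

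The cytokine *IL11* and the chemokine *CCL26* are given by leading gene because *IL11* is among the 20 highest genes and *CCL26* had the highest correlation with *ACTG2*. *IL11* was at 168 CPM in them against 13.5 CPM in *ACTA2*-led and 11.4 CPM in *DES*-led cells, with a UMI in 39, 59 and 8 cells. All 5 contractile cells with the most *IL11* UMIs were *ACTG2*-led, and without them *IL11* was at 33.8 CPM in the *ACTG2*-led cells. *CCL26*, also called eotaxin-3, was at 329, 79.4 and 30.01 CPM in the same order, and at 270.1 CPM in the *ACTG2*-led cells without the 5 highest, which were all *ACTG2*-led. Over all kept AT cells *CCL26* had a log2 ratio of 0.38 (contractile over other). *PDLIM3* was at 87.6 CPM in *ACTG2*-led and 111 CPM in *DES*-led cells, but 33.6 CPM in *ACTA2*-led cells, and without its 5 highest cells at 74.4, 57.1 and 31.6 CPM. Leaving out these cells was chosen after seeing the data. Of the *ACTG2*-led cells 47.7% were called G1, against 74.7% of the *ACTA2*-led and 74.7% of the *DES*-led cells. The sets were cut from the rule genes themselves, in a single library, and have no replicate.

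**Figure D5:**
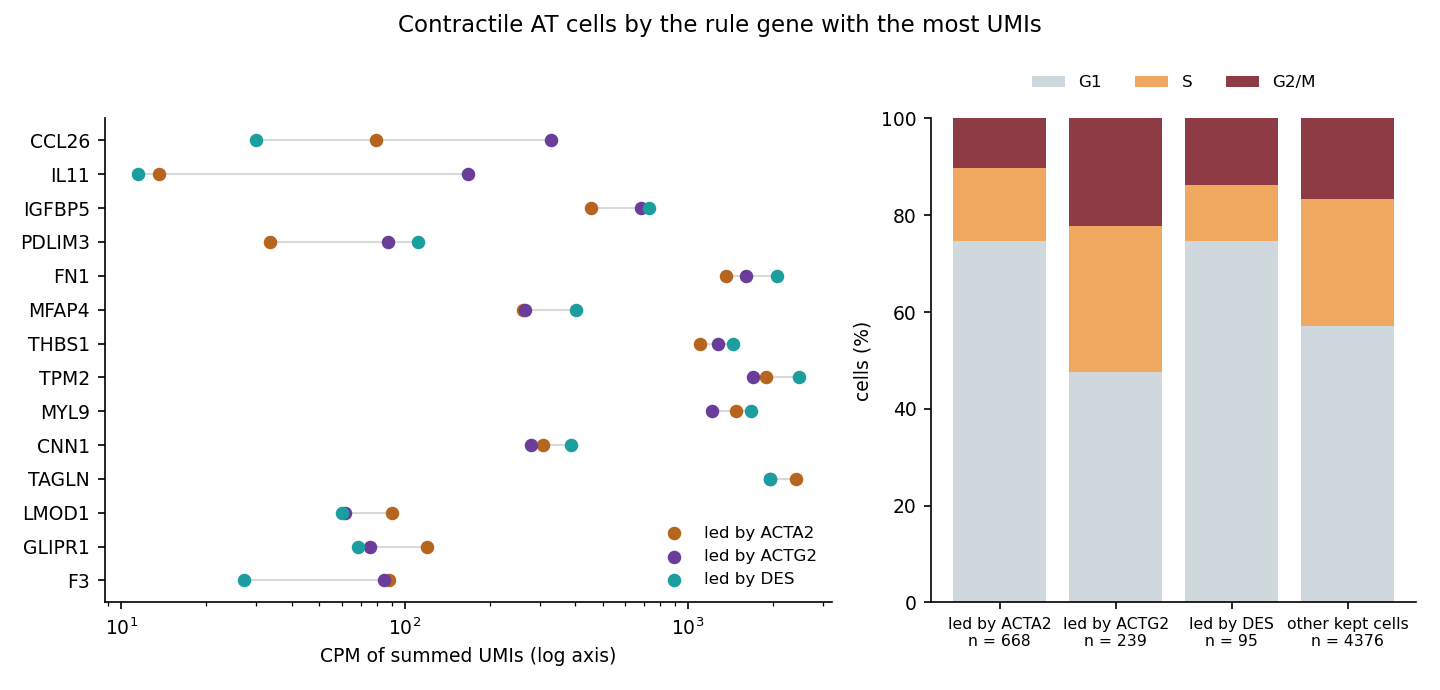
Left, CPM of summed UMIs (log axis) of 14 genes in contractile AT cells in which *ACTA2*, *ACTG2* or *DES* had the most UMIs; right, percentage of cells called G1, S and G2/M in these sets and in the other kept AT cells. *CCL26* and *IL11* lie farthest apart, at 329 and 168 CPM in the *ACTG2*-led cells, or 270.1 and 33.8 CPM without the 5 cells with the most UMIs of each gene.

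Within the 1027 contractile cells, Spearman correlations of UMIs per 10000 with each rule gene named different partners. *ACTA2* went with *TAGLN* (rho = 0.60), *TPM1* (0.51), profilin (*PFN1*, 0.40), *MYL6* (0.37) and a gene with an identifier only. *DES* went with *TPM2* (0.33), *MYL9* (0.33), *FN1* (0.31), *CNN1* (0.29) and *MFAP4* (0.28). *ACTG2* had weaker partners, *CCL26* (0.26), the small heat shock protein *HSPB1* (0.26), a gene with an identifier only, *IGFBP5* (0.23) and *THBS1* (0.22). These are descriptions over cells of 1 library that share depth and were chosen by the same 3 genes, and cells are not replicates. Over all 5403 kept AT cells the rule genes themselves had rho of 0.41 (*ACTA2* with *ACTG2*), 0.30 (*ACTA2* with *DES*) and 0.33 (*ACTG2* with *DES*).

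No S phase or mitosis gene passed 2-fold, but nearly every one tested had a log2 ratio below 0. All 8 tested S phase genes were below 0, with a median of -0.48, and so were 12 of 13 tested mitosis genes, with a median of -0.37, whereas 45.6% of all genes tested were above 0. Cyclin B2 (*CCNB2*) was at 12.6 against 25.6 CPM (-0.97) and topoisomerase (*TOP2A*) at 22.2 against 31.6 CPM (-0.49). Phase calls gave 68.1% of the contractile cells in G1 (95% interval 65.1 to 70.9%) against 57.1% (55.6 to 58.5%) of the others, and with every cell thinned to 2500 UMIs 56.5% against 47.9%. Seen the other way, 21.9% of G1, 14.3% of S and 15.7% of G2/M cells were contractile. The higher G1 share did not hold in every set of members. Of the contractile cells led by *ACTG2*, 47.7% were called G1, against 57.1% of the other AT cells. Among cells called G1 alone, the contractile list had a log2 ratio of 1.31 against 1.26 in all phases, and 50 of the 52 higher genes were over 2-fold higher again.

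The BM and PB libraries were not used to choose the AT cells, and the same rule within each gave its own comparison. In BM 28 of 6859 genes (0.408%) were over 2-fold higher and 32 (0.467%) over 2-fold lower in the 626 passing cells, and in PB 45 of 6336 (0.71%) and 31 (0.489%) in the 271 passing cells. Of the 52 genes over 2-fold higher in AT, 49 reached 10 CPM in BM and 22 of these were over 2-fold higher there too, which is 44.9% of the AT genes tested in BM and 78.6% of the BM genes. In PB 18 of 41 were, 43.9% of the AT genes tested there and 18 of the 45 PB genes. Their median log2 ratio was 0.93 in BM and 0.84 in PB, against -0.01 and 0.06 for all genes tested. Of the 21 lower genes, 2 of 17 were over 2-fold lower in BM and 1 of 14 in PB, *IFITM5* in both.

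*CNN1*, *TAGLN*, *MYL9*, *LMOD1*, *THBS1* and *TBXA2R* were among the genes over 2-fold higher in all 3 sources. *CNN1* had log2 ratios of 2.47 in AT, 1.75 in BM and 1.78 in PB. *TAGLN* was at 1.21 in BM and 1.25 in PB, *MYL9* at 1.08 in BM and 1.09 in PB and *LMOD1* at 1.29 in BM and 1.07 in PB. *THBS1* was at 1.19 in BM and 1.53 in PB, and *TBXA2R* at 1.94 in BM and 1.85 in PB. Genes outside the contractile list were also over 2-fold higher in all 3. Among them were *NEXN* (1.33 in BM and 1.46 in PB), *F3* (1.34 in BM and 1.83 in PB) and *ISOC1* (1.25 in BM and 1.18 in PB). *TPM1* was at 0.95 in BM and 0.95 in PB. The contractile list as a whole had a median of 1.11 in AT, 0.65 in BM and 0.77 in PB.

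Other genes went with the score in some sources and not in others. *IGFBP5* was at 1.46 in BM but had 0 UMIs in the passing and 1 in the other PB cells, and *PALLD*, at 1.22 in AT, was at -0.03 in BM and 0.78 in PB. *MGP*, lower in the contractile AT cells, was at 0.02 in BM and -0.31 in PB, and *DKK1* at -0.26 in BM and under 10 CPM in PB. *IL11* was lower in the passing BM cells, at 36.6 against 52.2 CPM, and higher in those of PB, at 63.3 against 13.2 CPM. The cell cycle lists differed in sign: the mitosis median was -0.37 in AT, 0.26 in BM and 0.89 in PB, and the S phase median -0.48, 0.39 and 0.85. *ID1* and *ID3*, lower in the contractile AT cells, were at -0.20 in BM and 0.88 in PB and at -0.25 in BM and 0.81 in PB. With 1 library of each source from 1 mare, these differences between sources were not tested and cannot be told apart from differences between libraries. The 271 passing PB cells had a median of 8641 UMIs against 7709 in the other PB cells, those of BM 7783.5 against 6762.5, and the part of this depth in the BM and PB ratios was not tested.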

How the data were processed

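Cells of AT, BM and PB were compared in 1 library each. Per the submitters' notes and the study's methods, Cell Ranger and EquCab3.0 served for alignment of the 10x 3′ reads, and ESAT for counting. The authors deposited raw UMI counts (whole numbers, no normalization) for each gene in each barcode, with a total of 48688055 UMIs over 11757 AT barcodes. Groups follow the sample titles.

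Barcodes with 2500 to 15000 UMIs and at most 3% on chromosome MT were kept, as in the study's methods. UMIs were summed over the contractile and the other kept AT cells and given as CPM with exact Poisson intervals at 95%. Genes at 10 CPM or more over all kept AT cells were compared by the log2 ratio of CPM + 1, with no test, since each source is 1 library and cells are not replicates. Named were the 20 highest and 15 lowest genes, the members of 26 gene lists and, for each rule gene, the 5 genes with the highest Spearman rho. The cells, the lists and the tests were chosen with earlier results of these data known. Phases were called with Seurat 5.3.0 in R 4.3.3, and the rest was computed with NumPy 2.4.6 and SciPy 1.17.1 in Python 3.11.15. The study also removed putative multiplet barcodes with DoubletDetection. Here no multiplet caller was used to remove cells, so the kept cells may not be the study's set. Removal of the 5% with the highest Scrublet score was an alternative. Alternatives changed the cut, the rule genes, depth, cell limits, pseudocount, filter and scaling. Promoter and protein sequences were not used here. Values of 1 further gene are not reported here.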

Additional observations from a re-analysis of the deposited data

Results flagged for a closer look

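Among the genes past 2-fold in the contractile AT cells, 3 went the opposite way under the same rule in another source, with counting intervals apart; the difference between sources was not tested, and each source is 1 library. *IL11* had a log2 ratio of 2.50 in AT and -0.50 in BM, at 36.6 CPM in the passing and 52.2 CPM in the other BM cells. *SFRP2*, a secreted WNT modulator, had -1.06 in AT and 0.56 in BM, at 61.4 against 41.4 CPM in BM. In AT, at 5.81 against 13.2 CPM, it reached 10 CPM only through the other cells. ENSECAG00000020877 had -1.23 in AT and 0.45 in PB, at 88.0 against 64.2 CPM.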

How the results depend on the processing

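The share of contractile cells was 35.6% at a cut of 10 and 7.55% at 40, 17.0% with *ACTG2* and *DES* at 10 or more per 10000 as the rule, 21.8% after thinning and 21.9% of G1 cells. The 52 higher genes became 43 and 67 at cuts of 10 and 40, and 35 with a pseudocount of 10 CPM. With the rule on *ACTG2* and *DES* there were 35, of which 34 were among the 52. Filters of 2 and 50 CPM gave 89 and 23. The 21 lower genes became 67 at a cut of 40, 32 in cells with 5000 to 10000 UMIs, 5 with a pseudocount of 10 CPM, and 51 and 3 with filters of 2 and 50 CPM, which test 9986 and 2242 genes. The log2 ratio of the contractile list, 1.26, was 1.15 and 1.43 at cuts of 10 and 40, 1.09 with the rule on *ACTG2* and *DES*, 1.18 after thinning, 1.25 with rule and genes on separate UMIs, 1.31 in G1 cells, 1.29 without the highest Scrublet scores and 1.28 with the median of all genes set to 0. The cause of these shifts was not tested. None of the 35 named genes changed sign under any alternative run, and of the 20 highest 19 to 20 stayed past 2-fold. The filters of 2 and 50 CPM leave each ratio as it was, so they are no check of these genes. Leaving out the 5 cells with the most UMIs of a gene, chosen after seeing the data, moved *IL11* to 1.46, and leaving the contractile list out of the totals, also chosen then, gave 53 higher genes. No paired analysis was possible because each group is 1 library. Genes near 10 CPM are limited by depth.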

Other observations

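Genes of fuel use were among the genes over 2-fold higher in the contractile AT cells. *FABP3*, the fatty acid binding protein of heart and skeletal muscle, was at 167 against 62.3 CPM (1.41), the lactate transporter *SLC16A3* at 40.2 against 17.0 CPM (1.19) and *PFKFB3*, which raises the glycolytic activator fructose 2,6-bisphosphate, at 18.9 against 8.94 CPM. Integrin-linked adhesion proteins were there too, *LIMS2* at 123 against 57.0 CPM (1.10) and *FBLIM1* at 45.5 against 20.2 CPM (1.13), as were the surface proteins *NRP1* (1.29), a semaphorin and VEGF coreceptor, and *SDC2* (1.30), a heparan sulfate proteoglycan. Under the same rule *NRP1* was at 0.93 in BM and under 10 CPM in PB, *FABP3* at 1.08 in BM and 0.17 in PB and *SDC2* at 0.10 in BM and 0.09 in PB. Lower in AT were *TFPI* (-1.05), the inhibitor of the tissue factor pathway, at -0.39 in BM and 0.25 in PB, and the secreted protease *HTRA3* (-1.07), at -1.03 in BM and -0.35 in PB. *PFKFB3* reached 10 CPM only through the contractile cells, and *TFPI* and *HTRA3* only through the other AT cells. All genes of this paragraph were chosen after their values were seen.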
